A study of Mus musculus with 18 samples.

Results

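The 10 genes described here are H19, Igf2, Igf2r, Meg3, Rian, Dlk1, Peg3, Grb10, Mest and Plagl1, imprinted growth regulators and noncoding RNAs of the mouse. They were chosen by name, with results of these libraries already known, and were found by symbol among the 54446 gene identifiers of each count table. Their levels and ratios are therefore given as a description, with no test. Their fitted changes and calls come from tests over all genes, and the 10 were not tested as a set. Because the choice was made with results known, the number of them called is also only a description. An imprinted gene is transcribed mainly from the copy inherited from 1 parent. The choice is set in the germ line by DNA methylation at control regions, and KRAB zinc finger proteins, TRIM28 and DNA methyltransferases keep it afterwards. Many imprinted genes act on fetal growth, those expressed from the father's copy often promoting it and those expressed from the mother's copy often restraining it, and in placental and some embryonic domains polycomb marks such as H3K27me3 add to the silencing of the other copy.

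The samples were embryoid bodies (clumps of differentiating stem cells grown in suspension), collected after 7 days from C57BL/6 mouse cells. Each of 6 groups had 3 libraries. In the Mettl14 line these were Mettl14 conditional knockout (CKO) with 5 µM GSK343, Mettl14 CKO without it, and Mettl14 control. In the Mettl3 line they were Mettl3 CKO with 5 µM GSK-J4, Mettl3 CKO without it, and Mettl3 control. METTL14 and METTL3 are the paired subunits of the enzyme that places N6-methyladenosine on mRNA. GSK343 inhibits EZH2, which writes H3K27me3, and GSK-J4 inhibits KDM6A and KDM6B, which remove it. The untreated knockouts received DMSO, per the labels' protocols. Each inhibitor was used in 1 line only, so inhibitor and line cannot be told apart, and neither the driver of the conditional deletion nor the number of clones is stated in the labels. The design text asks what a methyltransferase inhibitor does to the expression changes of the Mettl14 knockout.

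Total counts ran from 721853 to 32540164 per library, and the lowest 2, 721853 in replicate 3 of GSK343 and 1303697 in replicate 3 of Mettl14 CKO, were in the Mettl14 line. Whole-gene counts did not check the deletions, since the deleted exons are not named. Mettl14 stood at 17.1 to 24.6 CPM in libraries labelled Mettl14 CKO and at 17.7 to 19.2 CPM in their controls, and Mettl3 at 6.90 to 26.0 CPM in libraries labelled Mettl3 CKO and at 18.8 to 34.2 CPM in theirs. Levels are in CPM, the usual depth-scaled counts, with trimmed-mean (TMM) factors over all 18 libraries. The labelled cell state had little support from the marker lists used. The summed level of 5 endoderm markers was at most 12.8 CPM and that of 6 pluripotency markers at most 57.7 CPM in any library. In contrast, 7 fibroblast markers summed to 7083 CPM or more in each of the 15 libraries without GSK-J4. Genes of these lists differ in abundance, Col1a1 alone averaging 7743 CPM in Mettl14 controls. The sums are therefore not shares of cells and do not test the label. The highest sums of the other lists were 125 CPM (epithelium), 77.8 (skeletal muscle), 66.1 (blood), 64.2 (neural), 35.4 (endothelium) and 2.72 (trophoblast). Xist was present at 123 to 326 CPM and 4 Y-linked genes together at 61.6 to 214 CPM, without TMM scaling, in all 18. The labels do not say that replicates were separate cultures, so the spread between them may be technical.

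Several of the genes host microRNAs, and RefSeq places 1 hairpin within H19, 1 within Igf2, 2 within Meg3, 3 within Rian and 1 within Mest on the transcribed strand. The sequences below belong to H19, Meg3 and Rian, the noncoding hosts whose transcripts fell furthest with GSK-J4. They are mature microRNAs, 5′ to 3′ (RefSeq, GRCm38.p6), with the seed, bases 2 to 8, in capitals.
mmu-miR-675-5p (H19, chr7:142577112-142577133, minus strand): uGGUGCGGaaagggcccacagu
mmu-miR-675-3p (H19, chr7:142577078-142577099, minus strand): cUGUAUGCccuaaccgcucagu
mmu-miR-770-5p (Meg3, chr12:109563710-109563731, plus strand): aGCACCACgugucugggccacg
mmu-miR-370-3p (Rian, chr12:109618305-109618326, plus strand): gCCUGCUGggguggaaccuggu
No seed was shared among the 15 mature microRNAs of the 5 hosts. The microRNAs themselves were not measured; the libraries were made from polyadenylated RNA.

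H19 and Igf2 lie side by side on chromosome 7 (GRCm38, H19 at chr7:142575529-142578143 and Igf2 at chr7:142650766-142666816, both on the minus strand) and share enhancers. H19 is a long noncoding RNA expressed from the mother's copy, and Igf2 encodes a fetal growth factor expressed from the father's. H19 had 3.10, 9.10 and 0 CPM in Mettl14 CKO with GSK343, against 24.4, 9.69 and 83.6 CPM in Mettl14 CKO and 39.7, 14.2 and 43.0 CPM in Mettl14 controls. The 3 GSK343 libraries lay below every other library of the line. The value of 0 came from the shallowest library, whose 721853 counts allow a level of up to 4.37 CPM (3 counts, counting error only).
In the Mettl3 line H19 had 6.10, 6.23 and 8.04 CPM with GSK-J4, against 174, 255 and 228 CPM in Mettl3 CKO and 244, 127 and 134 CPM in Mettl3 controls. Each GSK-J4 library was thus far under each other library of its line. By group mean the order over the series was Mettl3 CKO (219 ± 41.1 CPM, SD, n = 3), Mettl3 control (168 ± 65.3), Mettl14 CKO (39.2 ± 39.1), Mettl14 control (32.3 ± 15.7), GSK-J4 (6.79 ± 1.09) and GSK343 (4.07 ± 4.63). Mettl3 CKO overlapped with its control, Mettl14 CKO with its control, and GSK-J4 with GSK343.

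Igf2 was low in every library. It had 0.400, 0.735 and 1.46 CPM with GSK343, 0.258, 0.154 and 0 CPM in Mettl14 CKO and 0, 0.128 and 0.408 CPM in Mettl14 controls, too little to pass the low-count filter of that line. In the Mettl3 line it had 20.0, 3.17 and 5.48 CPM with GSK-J4, 3.67, 5.65 and 1.12 CPM in Mettl3 CKO and 6.02, 1.52 and 6.02 CPM in Mettl3 controls. The groups of that line overlapped, and the 1 high value was replicate 1 of GSK-J4. In the GENCODE M21 annotation 62.8% of the exonic bases of Igf2 (3596 of 5723) also belong to Gm49394 on the same strand. HTSeq by default gives a read in such a stretch to neither gene; neither that setting nor the annotation used is given in the sources used here, so the counts of Igf2 are uncertain. Gm49394 itself had 30 counts over the 18 libraries, and Igf2 had 766.

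**Figure D1:**
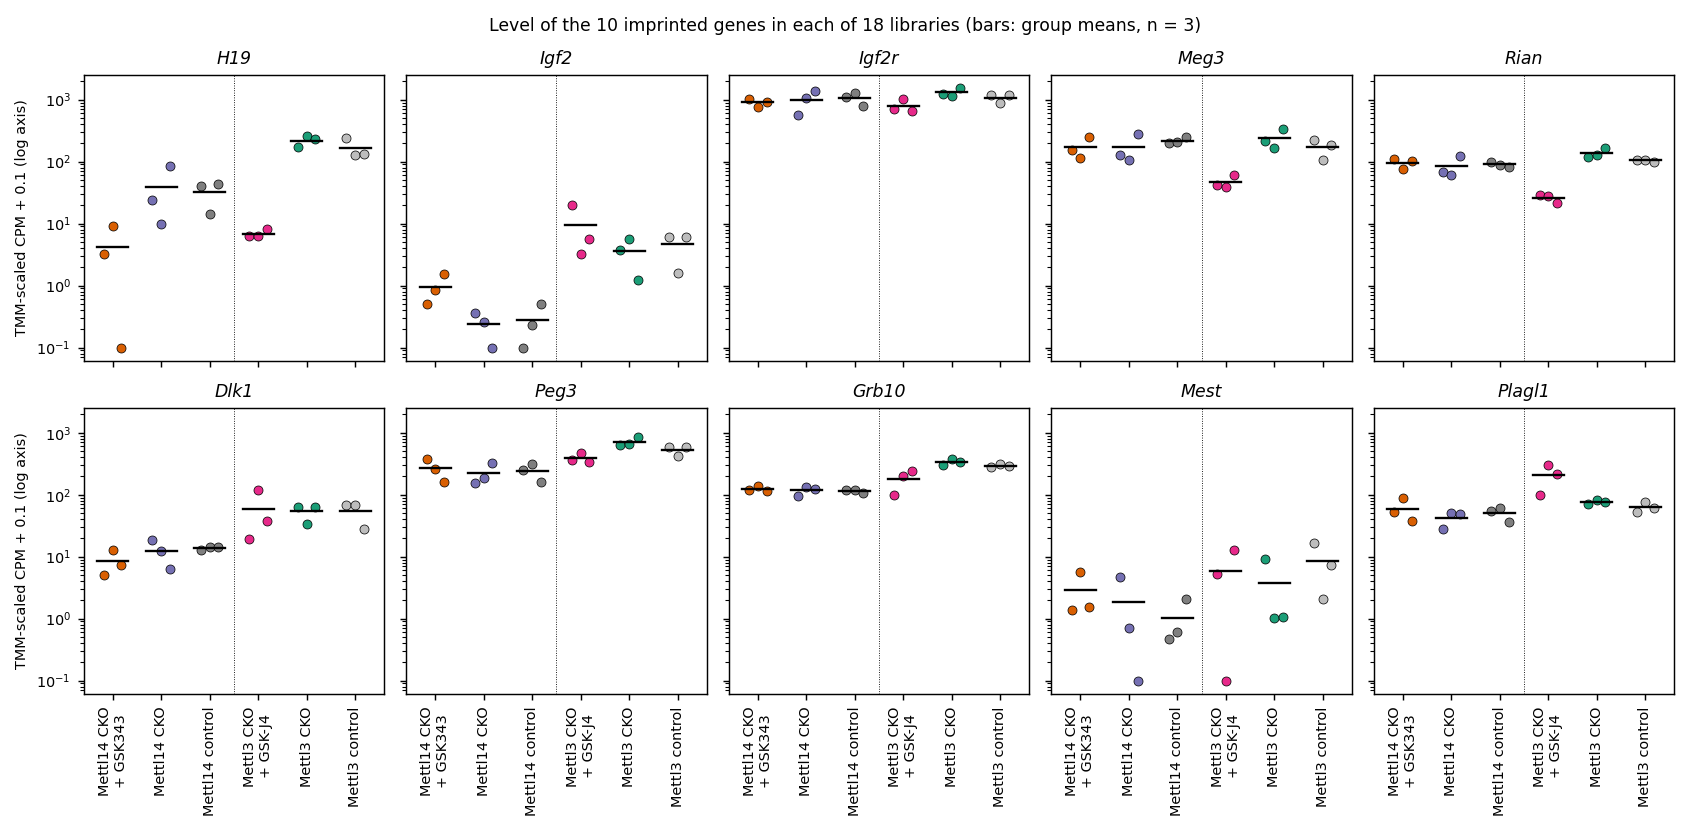
Level of each of the 10 genes (TMM-scaled CPM plus 0.1, log axis) in each library, with the Mettl14 line left of the dotted line and the Mettl3 line right of it. Dots are libraries and bars group means of 3. H19, Meg3 and Rian sit lowest of the Mettl3 line in the GSK-J4 libraries (6.10 to 8.04, 38.4 to 60.2 and 21.2 to 28.8 CPM), and Plagl1 sits highest there (100.5 to 302 CPM).

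Meg3, Rian and Dlk1 come from 1 imprinted domain on chromosome 12. Meg3 (chr12:109541001-109571726) and Rian (chr12:109603940-109661716) are noncoding RNAs made on the plus strand from the mother's copy, Rian carrying snoRNAs and microRNAs in its introns. Dlk1 (chr12:109452823-109463336) encodes a transmembrane ligand of the Notch type that is expressed from the father's copy and restrains adipocyte differentiation. Meg3 had 42.0, 38.4 and 60.2 CPM with GSK-J4, against 212, 167 and 339 CPM in Mettl3 CKO and 220, 106 and 185 CPM in Mettl3 controls. Rian had 28.8, 27.7 and 21.2 CPM with GSK-J4, against 120, 128 and 166 CPM in Mettl3 CKO and 106, 108 and 99.7 CPM in Mettl3 controls. For both RNAs the GSK-J4 libraries were the lowest 3 of the 9.
Among Mettl14 libraries Meg3 ranged from 112 to 249 CPM with GSK343, from 106 to 284 CPM in Mettl14 CKO and from 201 to 248 CPM in Mettl14 controls. Rian ranged from 75.2 to 112 CPM with GSK343, from 61.5 to 123 CPM in Mettl14 CKO and from 83.0 to 99.9 CPM in controls. The 3 groups overlapped for both. Dlk1 had 19.5, 119 and 37.5 CPM with GSK-J4, 64.1, 33.2 and 64.3 CPM in Mettl3 CKO and 69.0, 68.4 and 27.7 CPM in Mettl3 controls, so its GSK-J4 libraries lay on both sides of the others. Dlk1 stood in the Mettl14 line at 4.95 to 12.7 CPM with GSK343, 6.16 to 18.2 CPM in CKO and 12.6 to 14.3 CPM in controls.

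Ratios of counts within a library do not depend on its scaling. The ratio of Rian to Meg3 counts averaged 0.586 ± 0.204 with GSK-J4, 0.606 ± 0.143 in Mettl3 CKO and 0.678 ± 0.292 in Mettl3 controls (SD, n = 3 each), and 0.600 ± 0.173 with GSK343, 0.512 ± 0.0732 in Mettl14 CKO and 0.422 ± 0.0824 in Mettl14 controls. It stayed between 0.334 and 1.01 in all 18 libraries, and the GSK-J4 libraries lay within the range of the others. The ratio of Dlk1 to Meg3 was 0.465, 3.10 and 0.622 with GSK-J4, against 0.303, 0.199 and 0.190 in Mettl3 CKO and 0.314, 0.6425 and 0.1495 in Mettl3 controls. It lay above the untreated knockout in all 3 GSK-J4 libraries and overlapped with the controls. In the Mettl14 line the same ratio averaged 0.0580 ± 0.0475 with GSK343, 0.0931 ± 0.0630 in CKO and 0.0629 ± 0.00536 in controls. The ratio of Igf2 to H19 counts was 3.28, 0.508 and 0.681 with GSK-J4 and at most 0.0222 in Mettl3 CKO and 0.0448 in Mettl3 controls. With GSK343 it was 0.129 and 0.0808 in the 2 libraries with any H19 count, and it was at most 0.0159 in Mettl14 CKO and 0.00950 in Mettl14 controls. These ratios of the Mettl14 line rest on a few Igf2 counts. There were 8 and 8 in those GSK343 libraries, 2, 1 and 0 in Mettl14 CKO and 0, 1 and 4 in controls.

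**Figure D2:**
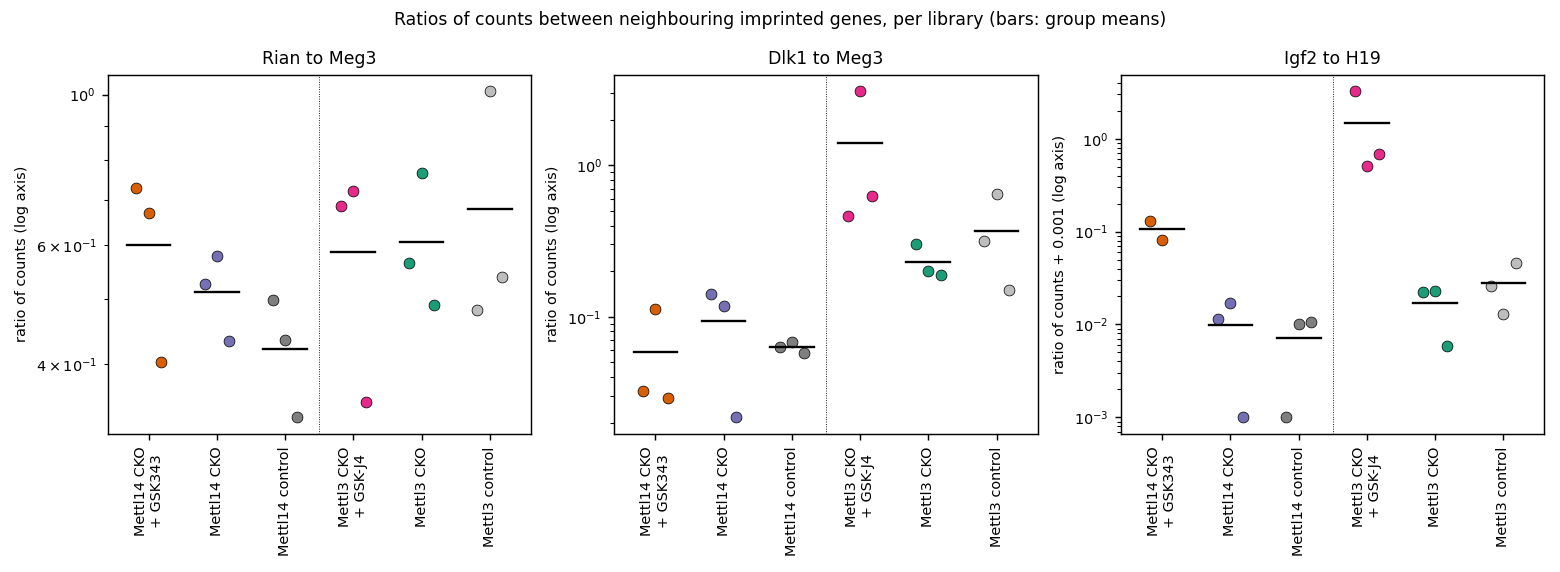
Ratios of counts between neighbouring imprinted genes in each library (log axes; dots are libraries, bars group means; 0.001 is added to the ratio of Igf2 to H19, and GSK343 replicate 3, with no H19 count, is not drawn there). Rian to Meg3 stays between 0.334 and 1.01 throughout, Dlk1 to Meg3 reaches 3.10 in GSK-J4 replicate 2, and Igf2 to H19 is highest in the GSK-J4 libraries (0.508 to 3.28).

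Plagl1 and Peg3 encode zinc finger proteins expressed from the father's copy, Plagl1 being a transcription factor that regulates other imprinted genes. Plagl1 had 100.5, 302 and 217 CPM with GSK-J4, against 71.3, 82.2 and 75.2 CPM in Mettl3 CKO and 52.8, 76.4 and 60.2 CPM in Mettl3 controls. All 3 GSK-J4 libraries were above the other 6, which makes Plagl1 the member that went against H19, Meg3 and Rian. Plagl1 ranged in the Mettl14 line from 37.9 to 88.0 CPM with GSK343, from 27.45 to 49.8 CPM in CKO and from 35.7 to 60.5 CPM in controls, with overlap. Peg3 had 358, 464 and 332 CPM with GSK-J4, 641, 648 and 867 CPM in Mettl3 CKO and 579, 422 and 583 CPM in Mettl3 controls. With GSK-J4 it was below the untreated knockout throughout but overlapped with the controls. Peg3 in the Mettl14 line ran from 163 to 380 CPM with GSK343, 153 to 328 CPM in CKO and 158 to 310 CPM in controls.

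Grb10 encodes an adaptor that restrains insulin and IGF signalling, and Igf2r encodes the receptor that takes IGF2 to the lysosome for breakdown; both are mainly expressed from the mother's copy in most embryonic tissues. Grb10 had 99.5, 198 and 243 CPM with GSK-J4, 300.03, 371 and 340 CPM in Mettl3 CKO and 279, 315 and 289 CPM in Mettl3 controls. The GSK-J4 libraries were below both other groups. In the Mettl14 line its groups overlapped at 114 to 139 CPM with GSK343, 94.3 to 133 CPM in CKO and 105 to 119 CPM in controls. Igf2r had the highest level of the 10 in each of the 18 libraries. It stood at 719, 1012 and 652 CPM with GSK-J4, 1217, 1147 and 1571 CPM in Mettl3 CKO and 1183, 881 and 1184 CPM in Mettl3 controls. In the Mettl14 line it was at 751 to 1043 CPM with GSK343, 574 to 1387 CPM in CKO and 789 to 1280 CPM in controls. Mest, a hydrolase-like protein expressed from the father's copy and known for its effect on fetal growth, was low and scattered: 5.12, 0 and 12.5 CPM with GSK-J4, 9.19, 0.913 and 0.953 CPM in Mettl3 CKO, and 16.4, 2.00 and 7.15 CPM in Mettl3 controls. It did not pass 5.61 CPM in any library of the Mettl14 line.

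Per kilobase of exon in the Mettl3 controls, Igf2r had the highest level (116 CPM per kb), then H19 (68.5), Peg3 (39.6), Grb10 (32.4), Dlk1 (9.73), Meg3 (9.42), Plagl1 (8.08), Rian (5.73), Mest (2.16) and Igf2 (0.789). In the Mettl14 controls the order was Igf2r (114 CPM per kb), Peg3 (17.97), H19 (13.1), Grb10 (12.6), Meg3 (12.1), Plagl1 (6.397), Rian (4.98), Dlk1 (2.42), Mest (0.239) and Igf2 (0.0313). H19 and Grb10 were thus close to Meg3 in the Mettl14 controls, whereas in the Mettl3 controls they stood well above it. In the Mettl3 controls the SD over libraries was 26.5 CPM per kb for H19 and 0.232 for Rian.

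The fits gave the following changes, with each line's 9 libraries in 1 edgeR quasi-likelihood fit over all genes, and a gene called where its Benjamini-Hochberg adjusted p was under 0.05. With GSK-J4 against untreated Mettl3 CKO, 5 of the 10 genes were called, 1 higher and 4 lower, where 13% of all 16782 genes tested were called, 3.96% higher and 9.07% lower. The log2 fold change was −4.98 ± 0.33 (SE) for H19, −2.38 ± 0.24 for Rian, −2.33 ± 0.34 for Meg3, −0.87 ± 0.21 for Peg3 and 1.47 ± 0.34 for Plagl1. The other 5 were not called: Grb10 had −0.87 ± 0.27, Igf2r −0.69 ± 0.22, Igf2 1.48 ± 1.06, Mest 0.69 ± 1.54 and Dlk1 0.16 ± 0.59. The groups did not overlap for 7 of the 10, 6 lower and 1 higher, where 33.2% of all genes tested had no overlap, 22.8% lower and 10.4% higher. The median of the 10 was −0.78, against −0.06 over all genes. The call of Peg3 was lost without Mettl3 CKO replicate 3, and that of Plagl1 without any 1 of the 3 Mettl3 CKO replicates, with log2 fold changes then of −0.72 for Peg3 and of 1.07 to 1.67 for Plagl1 over all 6 omissions. Peg3 was also not called with the replicate number as a block, nor Plagl1 when the 2 groups were fitted alone. Grb10 and Igf2r were called as lower with DESeq2 and with no low-count filter, which made 7 of 10. DESeq2 also called more of all genes, 3700 against 2186 in the main fit. The 13% above is the share of the main fit only and not that of these settings. Grb10 was also called with all 18 libraries in 1 fit and without GSK-J4 replicate 1 or 3, and Igf2r without GSK-J4 replicate 2. Igf2 was at 0.21 without GSK-J4 replicate 1, and Dlk1 at −0.90 without GSK-J4 replicate 2. Mest ran from −0.70 without GSK-J4 replicate 3 to 2.66 without Mettl3 CKO replicate 1.

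Set against the Mettl3 controls, which share the GSK-J4 libraries with that comparison, 4 of 10 were called, where 11.4% of genes were, 3.16% higher and 8.25% lower. These were H19 (−4.60 ± 0.33), Rian (−1.98 ± 0.23), Meg3 (−1.84 ± 0.34) and Plagl1 (1.74 ± 0.34). The call of Plagl1 was lost without Mettl3 control replicate 1. Peg3 stood at −0.43 ± 0.21 there and Grb10 at −0.68 ± 0.27, not called; Grb10 was called with no low-count filter, with all 18 libraries in 1 fit and without GSK-J4 replicate 3. The groups did not overlap for 5 of the 10, 4 lower and 1 higher, where 33.7% of genes had no overlap, 23.7% lower and 9.93% higher. The median was −0.47 for the 10 and −0.08 for all genes.

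GSK-J4 libraries also stood apart in other ways. Their 7 fibroblast or mesenchyme markers (Col1a1, Col1a2, Col3a1, Dcn, Pdgfra, Pdgfrb and Thy1) summed to 267 to 417 CPM, against 11109 to 12954 CPM in Mettl3 CKO and 7083 to 10854 CPM in Mettl3 controls, and all 7 were called lower than in either group by edgeR with Benjamini-Hochberg adjustment, with none at 0 in all 3 libraries. The 5 epithelial markers summed to 12.7 to 125 CPM, against 1.12 to 10.4 CPM in Mettl3 CKO and 1.59 to 5.72 CPM in controls, with Krt18 called higher and Krt5 at 0 in all GSK-J4 libraries. In GSK-J4 replicate 3 the sum was Krt18 alone (12.7 CPM), with Epcam, Cdh1 and Krt8 also at 0. Endothelial markers summed to 27.0 to 35.4 CPM, against 11.7 to 19.3 CPM in Mettl3 CKO and in controls. Endoderm markers summed to 6.34 to 12.8 CPM, against at most 1.57 and 2.48 CPM. No gene of these 2 lists was called against Mettl3 CKO. The pluripotency, trophoblast, muscle and blood sums overlapped with the other groups of the line. The 5 neural markers summed to 4.39 to 42.6 CPM, against 21.5 to 64.2 CPM in Mettl3 CKO and 25.3 to 30.0 CPM in controls. Of the 3 tested against Mettl3 CKO, Map2 was called lower, Tubb3 had −1.04 ± 1.24 and Sox2 0.37 ± 1.77 on the log2 scale, while Pax6, too low to be tested, had 3.17, 0.306 and 8.73 CPM with GSK-J4 and at most 0.185 CPM in Mettl3 CKO. Transcripts of the mitochondrial genome made up 0.678 to 0.957% of counts with GSK-J4 and 3.06 to 4.87% in the other 15 libraries. In bulk RNA, fewer cells of a type and less RNA per cell cannot be told apart, and the part of these shifts in the changes of H19, Meg3, Rian and Plagl1 was not tested. TMM factors were 1.18 to 1.21 in the GSK-J4 libraries and 0.872 to 1.01 elsewhere, so plain CPM put the GSK-J4 levels correspondingly higher (8.14 CPM for H19 and 31.0 CPM for Rian on average).

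**Figure D3:**
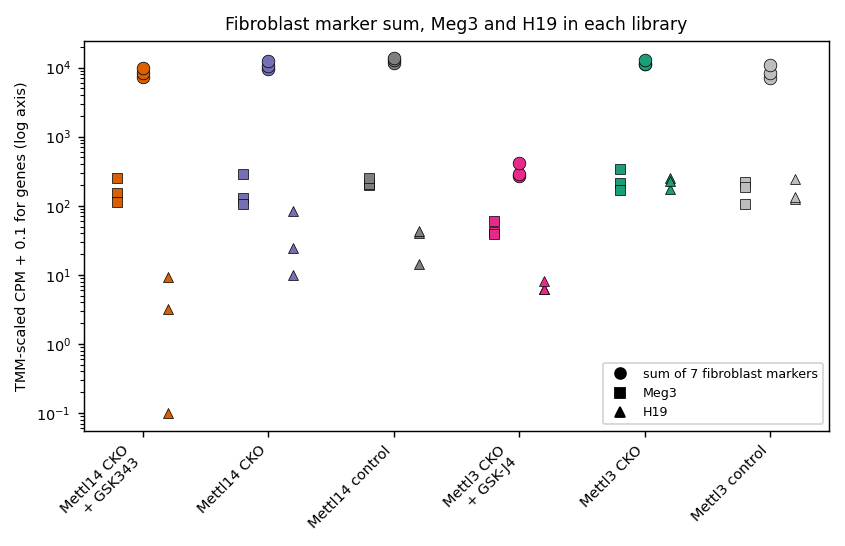
Summed level of 7 fibroblast or mesenchyme markers (circles, TMM-scaled CPM), Meg3 (squares) and H19 (triangles, both plus 0.1) in each library, log axis. The marker sum is 267 to 417 CPM in the GSK-J4 libraries and 7083 CPM or more in the others; in the GSK343 libraries H19 is low (at most 9.10 CPM) beside a marker sum of 7418 to 9774 CPM.

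The promoters shown next belong to 3 members called with GSK-J4, of which Meg3 and Peg3 fell and Plagl1 rose. Each window covers 250 bases before to 50 after the annotated start (RefSeq, GRCm38.p6), 5′ to 3′ on the transcribed strand, and capitals mark matches on either strand to 4 motifs chosen after the sequences had been read. These were TGACGTCA (the cAMP response element), TGCCGC (the element of ZFP57, which keeps imprints), GGGGCCCC (a PLAGL1-type element) and TATAAA (the TATA box).
Meg3 (chr12:109540746-109541045, plus strand): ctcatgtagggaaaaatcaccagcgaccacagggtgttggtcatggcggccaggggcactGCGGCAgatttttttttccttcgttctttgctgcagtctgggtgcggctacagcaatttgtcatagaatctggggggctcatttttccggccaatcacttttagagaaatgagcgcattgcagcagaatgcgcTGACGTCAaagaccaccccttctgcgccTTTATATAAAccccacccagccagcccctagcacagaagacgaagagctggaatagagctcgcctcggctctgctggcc
Peg3 (chr7:6730370-6730669, minus strand): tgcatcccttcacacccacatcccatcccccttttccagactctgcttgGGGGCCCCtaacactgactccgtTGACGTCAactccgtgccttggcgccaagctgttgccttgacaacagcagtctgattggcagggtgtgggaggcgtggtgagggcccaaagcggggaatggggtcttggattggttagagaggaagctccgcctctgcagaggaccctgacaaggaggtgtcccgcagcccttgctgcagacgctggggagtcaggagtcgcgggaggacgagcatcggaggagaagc
Plagl1 (chr10:13090582-13090881, plus strand): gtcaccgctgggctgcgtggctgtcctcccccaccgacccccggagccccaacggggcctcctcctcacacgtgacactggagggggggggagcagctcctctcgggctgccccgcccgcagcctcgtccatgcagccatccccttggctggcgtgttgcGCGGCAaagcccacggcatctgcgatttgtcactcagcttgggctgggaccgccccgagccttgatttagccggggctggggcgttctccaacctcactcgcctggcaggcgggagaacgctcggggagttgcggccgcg
Meg3 and Peg3 hold TGACGTCA, which is in 1.79% of the 32851 promoters of the same length in the table, and no other member's entry does. Meg3 and Plagl1 hold TGCCGC (11.6% of promoters), Peg3 holds GGGGCCCC (1.08%), and Meg3 holds TATAAA on both strands in overlapping letters (13.6%). A match in this window is a description and not a shown binding site. The motifs were chosen after the sequences had been read, so the shares over all promoters are no test of these matches. In all, 16 promoters of 9 of the 10 genes were in the table, with none for H19, and 6 of them hold TGCCGC, in 5 genes. The entry of Rian, which was also called lower with GSK-J4, holds none of the 4 motifs, nor does the second entry of Meg3. CpG dinucleotides numbered 13 in the Meg3 window shown, 13 in that of Peg3 and 26 in that of Plagl1, against a median of 7 over all promoters. They numbered 0 in the Rian window and 1 in the second Meg3 window.

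**Figure D4:**
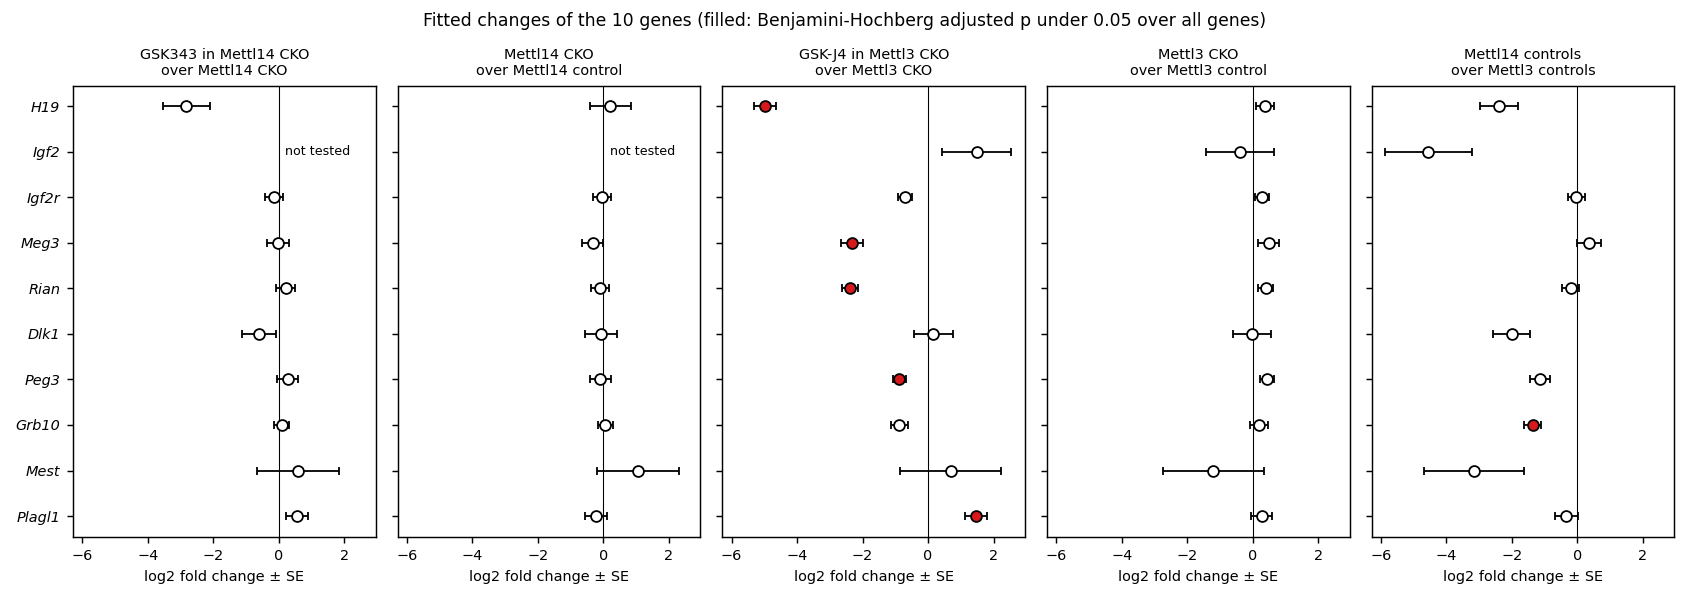
Fitted log2 fold changes with SE for the 10 genes in 5 comparisons, each the first named group over the second, with filled dots for genes called at an adjusted p under 0.05 over all genes. With GSK-J4, H19 (−4.98), Rian (−2.38), Meg3 (−2.33), Peg3 (−0.87) and Plagl1 (1.47) are filled; between the line controls Grb10 (−1.37) is.

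Few genes of the genome were called with GSK343. None of the 9 genes tested was called against untreated Mettl14 CKO, where 0.0288% of 13882 genes were called, all higher. H19 had the largest fitted difference of the 9, at −2.82 ± 0.71, and its groups did not overlap; 9.8% of all genes had no overlap, 5.29% lying below. Leaving out single libraries moved the value of H19. It was −1.70 without Mettl14 CKO replicate 3, a shallow library (1303697 counts) with 83.6 CPM, and −3.82 without GSK343 replicate 2. With no low-count filter H19 was called. The other 8 lay between −0.60 ± 0.52 (Dlk1) and 0.58 ± 1.25 (Mest, −0.53 without GSK343 replicate 2 and 2.75 without Mettl14 CKO replicate 1), and Plagl1 had 0.56 ± 0.34. Against the Mettl14 controls, which share the GSK343 libraries with that comparison, none of the 9 was called where 0.166% of genes were, and H19 had −2.61 ± 0.69. H19 was the 1 gene of the 9 that lay below those controls without overlap, as 7.17% of genes did, and 11.5% of genes had no overlap in either direction. The median of the 9 was 0.09 against untreated knockout and 0.10 against controls, and over all genes it was −0.04 and −0.01. Fibroblast markers summed to 7418 to 9774 CPM with GSK343, against 9534 to 12492 CPM in Mettl14 CKO and 11599 to 13568 CPM in controls; the part of this in the H19 values was not tested.

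The knockouts without inhibitor gave no call among the 10 genes. No member was called in Mettl14 CKO against its control or in Mettl3 CKO against its control, where edgeR called 0% of all genes in either; 208 and 315 genes had an unadjusted p under 0.05, and DESeq2 called 0 and 5. In Mettl14 CKO the changes ran from −0.33 ± 0.33 (Meg3) to 1.06 ± 1.25 (Mest), with H19 at 0.21 ± 0.63, and the groups overlapped for all 9 genes tested, where 7.68% of genes had no overlap. H19 was at −0.93 and Meg3 at −0.89 without Mettl14 CKO replicate 3, the highest library of that group for both, and Mest ran from −1.13 without Mettl14 CKO replicate 1 to 2.11 without Mettl14 control replicate 3. In Mettl3 CKO, 7 of the 10 had a positive value, from 0.19 ± 0.27 (Grb10) to 0.49 ± 0.33 (Meg3), and the libraries of Rian (0.40 ± 0.22) and Peg3 (0.45 ± 0.21) lay above their controls without overlap, as 6.47% of all genes did; 13.1% had no overlap in either direction. Mest had −1.20 ± 1.54 (−3.18 without Mettl3 CKO replicate 1 and −0.30 without Mettl3 control replicate 1), Igf2 −0.38 ± 1.04 and Dlk1 −0.03 ± 0.59. The difference between the knockout effects of the lines, tested on all 18 libraries, called none of the 10 and 0% of genes, with 366 genes at an unadjusted p under 0.05 and 17 called by DESeq2. For H19 that difference, Mettl14 minus Mettl3, was −0.22 ± 0.80, for Meg3 −0.84 ± 0.51 and for Rian −0.53 ± 0.37.

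The controls of the 2 lines did not overlap for several of these genes, although only 1 was called. In Mettl14 controls, 6 of the 10 lay below Mettl3 controls without overlap, where 8.48% of genes lay below in that way and 18.1% had no overlap in either direction. These were Igf2 (−4.55 ± 1.32), Mest (−3.15 ± 1.52), H19 (−2.38 ± 0.58), Dlk1 (−2.01 ± 0.56), Grb10 (−1.37 ± 0.25) and Peg3 (−1.14 ± 0.31). The gap was narrow for Mest, at 1.94 CPM in the highest Mettl14 control and 2.00 CPM in the lowest Mettl3 control. Igf2 rested on 0, 1 and 4 counts in Mettl14 controls. Grb10 alone was called, where 0.913% of genes were called, 0.153% lower. Grb10 was at 118, 119 and 105 CPM in Mettl14 controls, against 279, 315 and 289 CPM in Mettl3 controls. The other 4 overlapped, at −0.34 ± 0.35 (Plagl1), −0.20 ± 0.26 (Rian), −0.03 ± 0.27 (Igf2r) and 0.36 ± 0.36 (Meg3). The median was −1.26 for the 10 and −0.01 over all genes. The number called in this comparison depended on the fit: it was 5 of 10 with DESeq2, 4 with no low-count filter, 3 without the 2 shallowest libraries and 6 when the 2 control groups were fitted alone. The count over all genes also rose from 149 in the main fit. It was 288 with DESeq2, 280 with no low-count filter and 583 with the 2 groups alone. The 0.913% above is thus the share of the main fit only. Line, cell clone and depth cannot be told apart here (8288902 to 10285737 counts in Mettl14 controls, 21615674 to 29496824 in Mettl3 controls). Fibroblast markers summed to 11599 to 13568 CPM in Mettl14 controls and 7083 to 10854 CPM in Mettl3 controls, and their part in these differences was not tested. Of 5 skeletal muscle markers, Des had 0, 1.03 and 2.25 CPM in Mettl14 controls and 4.04, 76.1 and 20.7 CPM in Mettl3 controls; Myod1 was at 0 in both groups and Myog in all but 1 of the 6 libraries.

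Among 45 other genes listed as imprinted in at least some tissues, 25 are listed as expressed mainly from the father's copy and 20 from the mother's. Counts per gene do not tell the parental copies apart, so the copy expressed in these libraries was not measured. With GSK-J4 against Mettl3 CKO, 1 of 22 paternally expressed genes tested was called higher and none lower, and none of 15 maternally expressed genes was called higher and 2 lower. These counts stand beside 13% of all genes called in that comparison, 3.96% higher and 9.07% lower. Kcnq1ot1, the long antisense RNA that silences its own domain on the father's copy, had 221, 179 and 250.2 CPM with GSK-J4, against 67.7, 70.2 and 117 CPM in Mettl3 CKO and 85.1, 89.0 and 88.0 CPM in controls. It rose by 1.38 ± 0.25 on the log2 scale (edgeR, adjusted p = 0.00428; highest adjusted p on leaving out 1 library, 0.0462), with all 3 libraries above. Zim1, a zinc finger gene beside Peg3, had no count in any GSK-J4 library, against 11.2, 11.98 and 24.1 CPM in Mettl3 CKO and 9.84, 2.69 and 8.74 CPM in controls. That is at least 30.5-fold lower than in Mettl3 CKO and at least 13.7-fold lower than in controls, with the floor at 3 counts per library (edgeR adjusted p = 0.00233 and 0.00461). The call against controls was lost when the 2 groups were fitted alone (edgeR adjusted p = 0.0558). Zim1 and Peg3, its oppositely expressed neighbour, were both lower than in Mettl3 CKO. Dcn, a matrix proteoglycan that is imprinted in mouse placenta and is also 1 of the fibroblast markers, had 23.4, 0 and 4.28 CPM with GSK-J4, against 114, 146 and 133 CPM in Mettl3 CKO; it was called lower (−3.89 ± 1.02, edgeR adjusted p = 0.0285), but not on leaving out any 1 Mettl3 CKO library (0.0614 to 0.0801). Its value was −6.25 without GSK-J4 replicate 1, which held 23.4 CPM, and −3.26 without GSK-J4 replicate 2. Against the Mettl3 controls, at 159, 106 and 226 CPM, Dcn had −4.21 ± 1.03 (edgeR adjusted p = 0.0227, and 0.0762 without Mettl3 control replicate 3), with −6.56 and −3.58 on the same GSK-J4 omissions. When the 2 groups were fitted alone, Dcn was called neither against Mettl3 CKO nor against controls (edgeR adjusted p = 0.1 and 0.0818).
Against the Mettl3 controls the retrotransposon-derived Peg10, needed for the placenta, was called higher with GSK-J4 (1.98 ± 0.45, edgeR adjusted p = 0.0162), at 40.7, 67.9 and 43.1 CPM beside 13.8, 8.55 and 17.1 CPM. The call was lost without Mettl3 control replicate 1 or 2 (0.0875 and 0.0837) and with the replicate number as a block (edgeR adjusted p = 0.0508). The median log2 change of the tested genes with GSK-J4 against Mettl3 CKO was 0.50 for the paternally expressed list and −0.23 for the maternally expressed list, beside −0.06 over all genes. The first list ran from −8.41 to 6.09, with 15 values positive and 7 negative, and the second from −11.3 to 9.01, with 6 positive and 9 negative. Quartiles over all genes were −1.16 and 0.82, and the lists were not tested as sets. Between line controls Cdkn1c, a cell cycle inhibitor expressed from the mother's copy, was the 1 listed gene called, at 7.12, 3.97 and 9.49 CPM in Mettl14 controls, against 70.0, 71.0 and 104 CPM in Mettl3 controls (−3.57 ± 0.50, edgeR adjusted p = 0.000272). None of either list was called in the comparisons within the Mettl14 line or in Mettl3 CKO against its control.
Of the most abundant imprinted genes of the lists, Impact, Ndn, Zrsr1, Gnas, H13 and Ube3a were not called with GSK-J4. Impact stood at 328, 298 and 385 CPM with GSK-J4, 284, 287 and 303 CPM in Mettl3 CKO and 249, 279 and 295 CPM in controls. Ndn ranged from 39.5 to 88.2 CPM with GSK-J4 and from 59.8 to 91.7 CPM in Mettl3 CKO, and Zrsr1 from 47.8 to 134 CPM and from 43.6 to 48.3 CPM. Gnas averaged 1106 ± 63.0 CPM with GSK-J4 and 1322 ± 147 CPM in Mettl3 CKO, H13 248 ± 8.82 and 297 ± 46.2 CPM, and Ube3a 182 ± 34.5 and 167 ± 43.5 CPM.

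**Figure D5:**
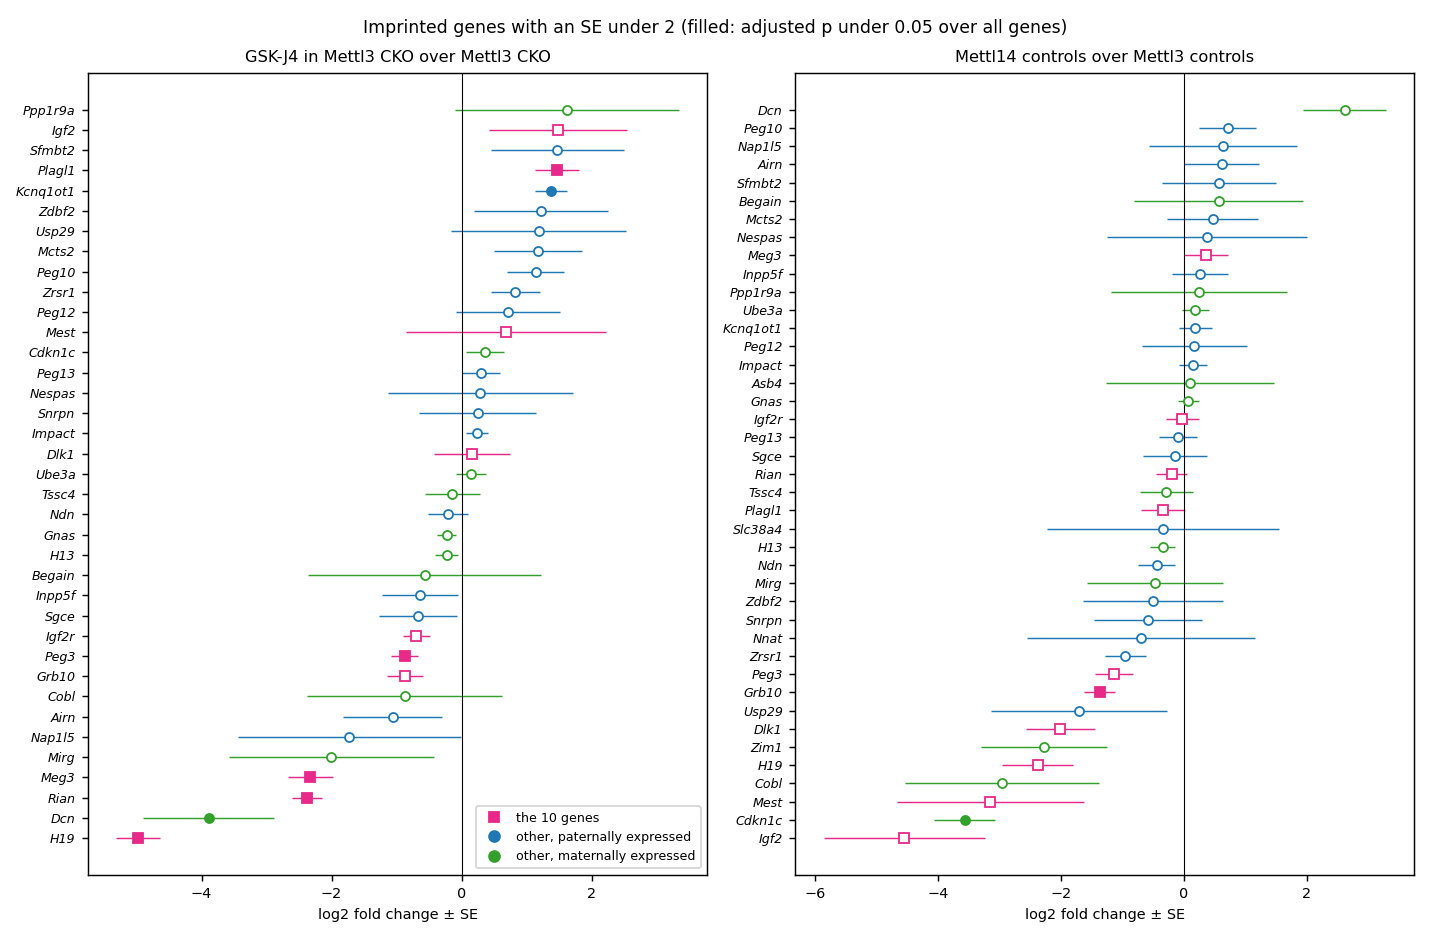
Fitted log2 fold changes with SE of the imprinted genes tested that had an SE under 2, sorted within each panel, 37 with GSK-J4 over Mettl3 CKO (left; Zim1, with no count under GSK-J4, is not drawn) and 41 in Mettl14 controls over Mettl3 controls (right). Squares are the 10 genes, circles other imprinted genes, filled where called. On the left H19 (−4.98) is lowest and Kcnq1ot1 (1.38) is called on the higher side beside Plagl1 (1.47); on the right Cdkn1c (−3.57) and Grb10 (−1.37) are called.

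Of 19 genes that keep imprints or write and silence chromatin at them, 18 were tested, and none was called in the Mettl14 line comparisons, in Mettl3 CKO against its control or between line controls. With GSK-J4 against Mettl3 CKO, 2 were called higher and 1 lower, beside 13% of all genes called. The number called ran from 0, without Mettl3 CKO replicate 1 or 2, to 6, without GSK-J4 replicate 3, and was 1 when the 2 groups were fitted alone. The polycomb subunits Suz12 and Eed rose: Suz12 had 73.4, 114 and 144 CPM with GSK-J4 against 33.7, 37.4 and 49.6 CPM in Mettl3 CKO (1.48 ± 0.30, edgeR adjusted p = 0.00784), and Eed 53.2, 72.6 and 79.8 CPM against 29.8, 25.1 and 34.1 CPM (1.24 ± 0.29, edgeR adjusted p = 0.0169). The de novo DNA methyltransferase Dnmt3a fell, with 10.98, 23.3 and 45.5 CPM against 86.8, 81.0 and 104 CPM (−1.74 ± 0.43, edgeR adjusted p = 0.0214). The calls of Eed and Dnmt3a were lost without any 1 Mettl3 CKO library, and that of Suz12 without replicate 1 or 2 (highest adjusted p 0.122, 0.0800 and 0.0677). With no low-count filter Eed was not called (edgeR adjusted p = 0.0572). When the 2 groups were fitted alone, neither Eed nor Dnmt3a was called (edgeR adjusted p = 0.0618 and 0.0667). Against the Mettl3 controls Suz12 alone was called (1.68 ± 0.30, edgeR adjusted p = 0.00449). Trim28, the corepressor that keeps imprints, averaged 196 ± 27.2 CPM with GSK-J4 and 202 ± 34.4 CPM in Mettl3 CKO, Ehmt2 205 ± 92.8 and 183 ± 30.6 CPM and Zfp445 107 ± 39.9 and 70.4 ± 12.03 CPM, none of them called.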

How the data were processed

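RNA with poly(A) tails was captured on beads and made into stranded libraries, per the labels' protocols. The authors deposited raw counts per gene; CASAVA, Trimmomatic 0.38, HISAT2 2.1.0, HTSeq and the build mm10 are named in the submitters' processing notes, and the annotation release and strand setting were not given in the sources used here. Without a known strand setting, reads of Meg3, Mest and Igf2 that overlap antisense genes are uncertain. Symbols and gene coordinates came from GENCODE M21, which matched 54409 of 54446 identifiers. The members, lists and motifs were chosen with earlier results of these data known. Named genes were the 10 members and, of each list, the genes called in a comparison (up to 4 by p) and the 4 with the highest mean level, besides the 3 genes most correlated with each of H19, Igf2 and Meg3, of which 1 is not reported here. From the counts, each line's 9 libraries entered 1 edgeR fit (version 4.0.16, R 4.3.3) with TMM factors and genes kept by filterByExpr, tested by the quasi-likelihood F test with Benjamini-Hochberg adjustment, while line controls and the difference of knockout effects were fitted on all 18. The SE is the absolute log2 fold change over the square root of F. Scripts were tested on simulated data. Alternatives were DESeq2 1.42.0, a replicate block, RLE factors, testing of all genes without the filter, fewer or more groups in the fit, omission of the 2 libraries with the lowest totals (721853 and 1303697 counts) and of each library. Depth ran from 721853 to 32540164 counts, so a floor of 3 counts lay between 0.0922 and 4.16 CPM without TMM scaling; floors cover counting error only. Figures used Python 3.11.15 and matplotlib 3.10.9.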

Additional observations from a re-analysis of the deposited data

How the results depend on the processing

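Among the log2 fold changes of the 10 genes, 987 of 1010 values under other settings moved by less than the spread between replicates. None that was called changed sign. Many of these settings left out only 1 library, and the spread is wide for Igf2 and Mest, so small moves say little there. Levels moved by less than their spread in 117 of 120. The 53 ratio values were group means with 1 library left out. Such a mean cannot move by more than that spread, so they are no check. Of the other named genes, 123 of 144 values kept the direction and the call, and 21 lost the call. The number of genes called moved most. With DESeq2 it was 56 for GSK343 against Mettl14 CKO, 70 for GSK343 against control, 5 for Mettl3 CKO, 3700 for GSK-J4 against Mettl3 CKO, 3463 against control, 288 between line controls and 17 for the difference of knockout effects. With no low-count filter it was 15 for Mettl14 CKO, 50 and 63 for GSK343, 6 for Mettl3 CKO, 280 between lines and 13 for the difference. RLE factors gave 1 for GSK343 against Mettl14 CKO. Without the 2 libraries with the lowest totals (neither is in the Mettl3 line) it was 2 and 37 for GSK343. All 18 libraries in 1 fit gave 0 and 2 for GSK343 and 3373 and 3155 for GSK-J4. Only the groups compared gave 35 for GSK343 against control, 2 for Mettl3 CKO, 977 and 887 for GSK-J4, 583 between lines and 1 for the difference. Members called became 1 with no filter for GSK343 against Mettl14 CKO and 1 against control (H19 in both), for GSK-J4 against Mettl3 CKO 7 with DESeq2 and 7 with no filter (Grb10 and Igf2r added), and between lines 5 with DESeq2, 4 with no filter, 3 without the shallow libraries and 6 with only the 2 groups. Leaving out 1 library gave 0 to 7 genes for Mettl14 CKO, 0 to 14 and 4 to 28 for GSK343, 0 for Mettl3 CKO, 1032 to 3061 and 888 to 2798 for GSK-J4, 89 to 112 between lines and 0 for the difference; members called were 0 in the Mettl14 line, in Mettl3 CKO and for the difference, 3 to 6 and 3 to 5 for GSK-J4 and 1 between lines. Where these moved, the cause was not tested. With the replicate number as a block, GSK343 against Mettl14 CKO had 1 call, and GSK-J4 had 1407 against Mettl3 CKO and 1256 against control; 4 members were called in either GSK-J4 comparison, Peg3 being the one lost against Mettl3 CKO. Same-numbered libraries did not deviate together (correlations of −0.085 to 0.069). Such values over all genes, from libraries of unlike depth, cannot show whether the numbers pair the samples. Depth limits Igf2, Mest and H19 in the Mettl14 line, where 3 counts are up to 4.37 CPM.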

Other observations

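Among the genes whose log2 CPM followed Meg3 most closely over the 15 libraries without GSK-J4 were Mzf1 (Pearson r = 0.912) and Adcy6 (0.877), with Spearman values of 0.932 and 0.786. Within the 9 libraries of the Mettl14 line their r was 0.933 and 0.892, and within the 6 remaining libraries of the Mettl3 line 0.900 and 0.867. For H19 and Igf2 the libraries fall into the 2 lines, so values are given within lines only. Ttc9 had r = 0.861 with H19 in the Mettl14 line and 0.796 in the Mettl3 line, whereas Fap had 0.939 and −0.061 and Ak5 0.901 and 0.399. Vim had 0.601 and 0.671 with Igf2, Eef2k 0.881 and 0.243 and Timp3 0.750 and 0.183. These genes were chosen as the best of all genes past the low-count filter, the libraries share depth and line, and the values are descriptions with no test.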
